A study of Mus musculus with 8 samples.

Results

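The genes described here encode mitochondrial ribosomal proteins, the protein components of the ribosome that works inside mitochondria. They were chosen by symbol: protein-coding mouse genes named Mrpl or Mrps followed by a number, with at least 10 counts summed over the 8 libraries. Of 78 such symbols, 77 met the count minimum, out of 49585 genes in the count table, and 48 of them belong to the large (Mrpl) and 29 to the small (Mrps) subunit by their symbols. Mrpl53 (ENSMUSG00000030037, chromosome 6 from 83109040 to 83109939) had no counts in any library and shares 88.0% of its annotated exon bases with another gene on the same strand, Gm42688. All 77 members passed the filter on low counts that left 15255 genes for testing, and the lowest count of any member in any library was 67.

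RNA was sequenced from 3T3-L1, an established line of mouse fibroblasts able to become fat cells, on day 7 of culture in 4 groups of 2 libraries each. The 3D induced group consisted of hanging-drop spheroids, seeded with about 20000 cells in 28 µL, that received troglitazone (10 µM) and insulin (1 µg/ml) for the whole period and dexamethasone (250 nM) and triiodothyronine (10 nM) over the first 2 days. The 3D uninduced group consisted of spheroids without these 4 agents. The 2D induced and 2D uninduced groups were flat cultures of the same cells with and without the same agents. All 4 groups share 1 cell line, grown beforehand in medium with calf serum and methylcellulose, so the groups say nothing of other cells or of fat tissue.

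Mitochondrial ribosomes translate the few proteins encoded by the mitochondrial genome, all of them subunits of the respiratory chain or of the ATP synthase. Their RNA comes from the mitochondrial genome, whereas every one of their proteins is encoded in the nucleus, made in the cytosol and imported. The small subunit reads the messenger RNA, and the large subunit joins the amino acids and releases the new chain at an exit tunnel that faces the inner membrane. White fat cells that form in culture are known to build up mitochondria as they mature.

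The members lie on 17 chromosomes, with at most 11 on one of them, chromosome 11, and their exons together span 607 to 8631 bp per gene in GENCODE vM21 on GRCm38/mm10. The promoters are shown because they are a feature that the choice of members did not use. RefSeq promoter windows on GRCm38.p6, from 250 bases before to 50 bases after the start, were at hand for 68 members. Short motifs were searched on both strands. The NRF1 core GCGCNTGCG, named after a transcription factor known for controlling nuclear genes of mitochondria, was found in 18 of 68 windows (26.5%), against 10.1% of the windows of 16455 protein-coding genes. The ETS motif CCGGAAGT, bound by GABP among others, was found in 12 (17.6%), against 5.94%. The YY1 motif AAGATGGCG was found in 8 (11.8%), against 2.25%. At least 1 of these 3 motifs was in 35 windows (51.5%), against 16.7% of the windows of all protein-coding genes. The 16455 include genes that did not pass the filter on low counts, whereas all members did. The GC box GGGCGG was about as common in members (50%) as in all protein-coding genes (51.1%), and the TATA box TATAAA was found in 7.35% of members against 14.3%. NRF1 cores were present in 13 of 42 large and 5 of 26 small subunit windows. The NRF1 core can match both strands at neighbouring positions, motifs were searched independently of one another, and a match is a string of letters, not a measured binding site.

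The longest stretches before the start that lie in no annotated exon are printed for Mrpl12 and Mrps27, members that rose with induction of flat cultures, with the NRF1 core or the ETS motif in capitals. Both are on the plus strand of GRCm38.p6, at chr11:120484387-120484612 and chr13:99344706-99344785.
Mrpl12: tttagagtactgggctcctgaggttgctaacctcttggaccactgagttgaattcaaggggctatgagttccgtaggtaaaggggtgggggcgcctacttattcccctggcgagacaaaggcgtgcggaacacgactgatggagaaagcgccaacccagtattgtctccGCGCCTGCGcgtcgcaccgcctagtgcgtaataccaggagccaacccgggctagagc
Mrps27: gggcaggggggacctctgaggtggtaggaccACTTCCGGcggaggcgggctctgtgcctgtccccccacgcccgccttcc

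Not all members called below hold a motif: the windows of Mrps2 and Mrps16 held none of the 3 searched for. Shorter windows around the motif are given for 3 more of the called members that hold one: Mrpl17 (minus strand, chr7:105811117-105811145) and Mrpl30 (plus strand, chr1:37890384-37890412) with the NRF1 core, and Mrpl51 (plus strand, chr6:125192099-125192128) with the ETS motif.
Mrpl17: ggctctgatgCGCACGCGCaaacgcggta
Mrpl30: tgacgccgctGCGCCTGCGctgtcttcta
Mrpl51: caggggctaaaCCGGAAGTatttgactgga
The first capital stands 81 bases before the start in Mrpl12, 83 in Mrpl30, 48 in Mrpl17, 90 in Mrpl51 and 49 in Mrps27. Mrpl12 and Mrpl30 carry the same letters in the same orientation, and Mrpl17 carries the core on the other strand. Among the 9 members with a window that were called higher in 2D induction, 7 (77.8%) held at least 1 of the 3 motifs, against 28 of the 59 others (47.5%). These 9 are few, and the difference was not tested. For the members lower in 3D than in 2D induced cultures the shares were 10 of 18 (55.6%) and 25 of 50 (50%).

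A start within 1000 bp of the start of another protein-coding gene that runs the other way was found for 18 members (23.4%), against 6.77% of 21721 protein-coding genes in the annotation. The 21721 also include genes that did not pass the filter on low counts. Mrpl30 faces Mitd1 at 66 bp and Mrpl51 faces Ncapd2 at 100 bp. Exon bases are shared with another gene in 32 members, and the share reaches 50% in only Mrps34 (77.8%, with Mapk8ip3 and Nme3) and Mrps25 (69.8%, with Nr2c2). The library kit keeps strand, but the strand setting of the counting is not given in the sources used here, so reads of such neighbours cannot be told apart. Among members named most often below, the shared part was 24.2% of the exon bases of Mrps27, 13.1% of Mrpl12, 10.1% of Mrpl18, 4.16% of Mrpl13 and 2.15% of Mrpl51, and none of Mrpl15, Mrpl17, Mrpl30, Mrps10 or Mrps16.

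The libraries held 11839374 to 21169390 counts. Levels are CPM, computed from the counts and the TMM-scaled library sizes. Replicates agreed less well in spheroids: the biological coefficient of variation came to 0.327 (3D induced) and 0.111 (3D uninduced), against 0.0473 (2D induced) and 0.0469 (2D uninduced), while the model uses 1 spread per gene for all groups. The 7 adipocyte markers summed to 1556 and 2696 CPM (3D induced), 79.9 and 75.5 CPM (3D uninduced), 6343 and 5866.5 CPM (2D induced) and 38.4 and 35.1 CPM (2D uninduced). The 7 fibroblast markers summed to 6910 to 20975 CPM (3D induced), 15907 to 18239 (3D uninduced), 30034 to 30790 (2D induced) and 46933 to 48258 (2D uninduced). Of 5 macrophage markers, Ptprc and Adgre1 had no counts, and the sum was 27.6 and 53.2 CPM (3D induced), 64.3 and 61.4 CPM (3D uninduced), 17.4 and 16.5 CPM (2D induced) and 22.001 and 16.7 CPM (2D uninduced). The 5 endothelial markers summed to under 2 CPM in every library. The part of these differences in the results below was not tested. These are bulk samples, so a change in the share of one kind of cell and a change in RNA per cell cannot be told apart. The labels describe independently prepared samples without saying whether the cultures were separate, so p-values speak of the spread among these libraries, which may be technical.

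Taken as a sum, the 77 genes reached their highest level in 2D induced cultures. The sum was 2552.5 and 3408 CPM (3D induced), 2562.5 and 2585 CPM (3D uninduced), 3924 and 3813 CPM (2D induced) and 2841 and 2774 CPM (2D uninduced). Both 2D induced libraries lay above all others, and the 2 libraries of the 3D induced group were further apart than those of any other group. As a share of all counts, without scaling, the members made up 0.265% and 0.355% (3D induced), 0.277% and 0.274% (3D uninduced), 0.371% and 0.361% (2D induced) and 0.270% and 0.263% (2D uninduced). The group mean of the sum was 1.38 times as high in 2D induced as in 2D uninduced cultures, and 1.16 times as high in 3D induced as in 3D uninduced cultures. It was 0.770 times as high in 3D induced as in 2D induced cultures. Between the uninduced groups the ratio was 0.917, with 3D lower, but the shares of all counts without scaling put 3D above 2D.

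The sums of both subunits had the same order of groups. Large subunit genes summed to 1589.5 and 2109 CPM (3D induced), 1601 and 1585 CPM (3D uninduced), 2463 and 2373 CPM (2D induced) and 1769 and 1715 CPM (2D uninduced). Small subunit genes summed to 963 and 1299 CPM (3D induced), 961 and 999 CPM (3D uninduced), 1461 and 1439.6 CPM (2D induced) and 1071 and 1059 CPM (2D uninduced). Per kilobase of exon, the ratio of the large to the small sum was 1.87 ± 0.020 for 3D induced and 1.81 ± 0.048 for 3D uninduced spheroids, and 1.85 ± 0.046 for 2D induced and 1.79 ± 0.022 for 2D uninduced cultures (mean ± SD, n = 2 each). In each format both induced libraries lay above both uninduced ones, while 3D and 2D overlapped at each state of induction, and the 8 libraries spanned only 1.78 to 1.88. Mrps30 and Mrps18a carry small-subunit symbols but sit in the large subunit in known structures, and Mrps36 is now known as a subunit of the 2-oxoglutarate dehydrogenase. Counting subunits by structure gave a mean ratio of 2.03, against 1.83 by symbol, and kept that separation. Without division by length the mean ratio was 1.64, and induced and uninduced libraries overlapped in both formats.

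**Figure D1:**
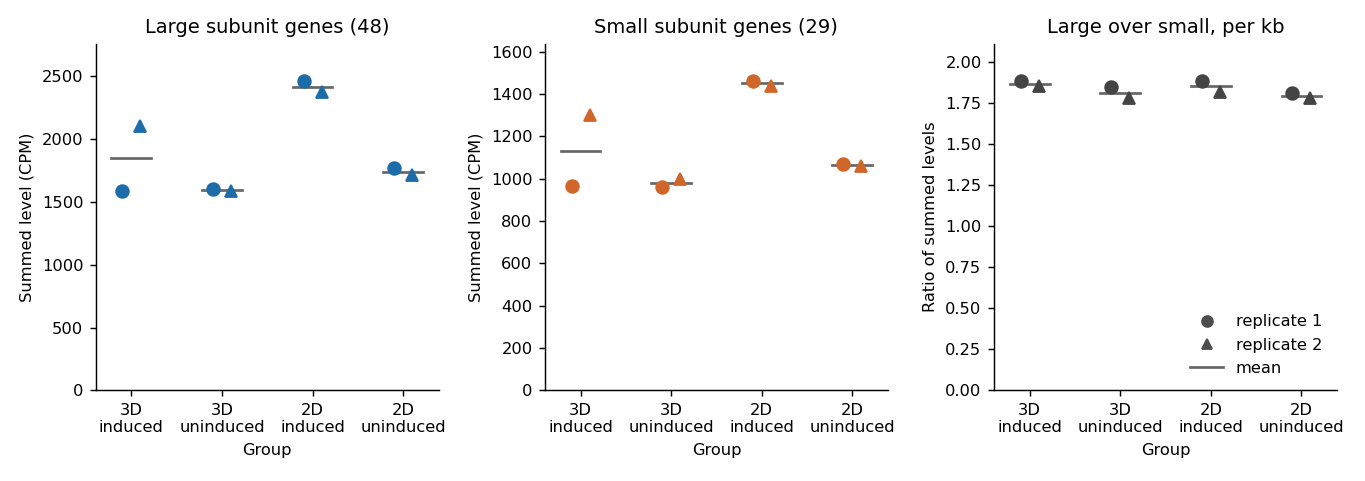
Summed level (CPM) of the 48 large subunit genes and of the 29 small subunit genes, and the ratio of large to small per kilobase, in each library by group; circles are replicate 1, triangles replicate 2 and lines the mean of both. Both sums are highest in 2D induced cultures, the 3D induced replicates lie apart, and the ratio stays between 1.78 and 1.88.

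Single members differed widely in level. Averaged over the 8 libraries and per kilobase of exon, Mrps6 stood highest at 88.7 CPM per kb, followed by Mrpl34 at 58.5, Mrpl28 at 46.6, Mrpl12 at 46.0 and Mrps21 at 45.4. Mrps6, Mrps21, Mrpl28 and Mrpl34 have counterparts in the bacterial ribosome, and Mrpl12 forms the flexible stalk that recruits translation factors. The lowest were Mrps10 at 1.81, Mrpl23 at 3.47, Mrpl32 at 4.71, Mrpl33 at 4.80 and Mrps35 at 4.96 CPM per kb. These values divide by the union of all annotated exons, which is long where a gene has long alternative ends, as in Mrps10 with 8079 bp against 1532 bp in Mrpl12.

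In induced flat cultures 10 mitochondrial ribosomal protein genes of both subunits rose. In the edgeR quasi-likelihood test with Benjamini-Hochberg adjustment over all genes, 10 of 77 members were called higher at an adjusted p under 0.05 in 2D induced than in 2D uninduced cultures (13.0% of members), against 5.91% of all genes tested. None was called lower, against 2.97% of all genes, and DESeq2 also called none lower. The 10 were 6 large (Mrpl12, Mrpl15, Mrpl17, Mrpl18, Mrpl37 and Mrpl51) and 4 small (Mrps2, Mrps5, Mrps26 and Mrps27) subunit genes. An unadjusted p under 0.05 in edgeR was found for 46 of 77 members, beside 3583 of the 15255 genes tested. The change was positive in 76 of 77 members. The median change was 0.46 on the log2 scale (0.43 for large and 0.49 for small subunit genes), beside 0 for all genes tested. Both induced libraries lay above both uninduced libraries in 68 members and below them in 1, Mrpl48, against 35.1% and 34.5% of all genes. The 8 members whose groups overlapped were Mrpl13, Mrpl23, Mrpl33, Mrpl54, Mrpl58, Mrps18c, Mrps25 and Mrps28.

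Mrpl12 had the largest change in this comparison. It binds translation factors at the L7/L12 stalk and is also known to bind the mitochondrial RNA polymerase. Its level was 131 and 122 CPM in 2D induced libraries, against 47.98 and 45.98 CPM in 2D uninduced libraries. The groups are well separated, and the change was 1.43 ± 0.21 (log2, SE) or 2.69-fold, with an adjusted p of 0.00644. It was the 1 member called with a change of at least 2-fold, a rule met by 4.52% of all genes.

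The next members changed by less than 2-fold. Mrpl15, a protein that lies close to the ribosomal RNA core and has a bacterial counterpart, had 69.2 and 66.4 CPM in 2D induced against 39.5 and 35.3 CPM in 2D uninduced libraries (log2 change 0.86 ± 0.16, adjusted p 0.0177). Mrpl18, which in the mammalian mitochondrial ribosome is part of the central protuberance, had 70.5 and 69.7 CPM in 2D induced against 41.9 and 38.1 CPM in 2D uninduced libraries (0.81 ± 0.15, adjusted p 0.0156). Mrpl51, a protein without a bacterial counterpart, had 117 and 103 CPM in 2D induced against 65.3 and 66.9 CPM in 2D uninduced libraries (0.73 ± 0.14, adjusted p 0.0204). In all 3 genes the lower induced library was well above the higher uninduced one. Mrps27, a pentatricopeptide repeat protein of the small subunit, had 36.7 and 35.8 CPM in 2D induced against 21.95 and 22.76 CPM in 2D uninduced libraries (0.70 ± 0.16, adjusted p 0.0387). Mrpl17, at the rim of the exit tunnel, had 87.6 and 84.7 CPM in 2D induced against 56.9 and 52.1 CPM in 2D uninduced libraries (0.66 ± 0.13, adjusted p 0.0232). Mrps2, Mrps26, Mrpl37 and Mrps5 rose by 0.65, 0.64, 0.58 and 0.58 on the log2 scale, with adjusted p between 0.0259 and 0.0413.

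Several members with known roles did not pass. Mrpl10 and Mrpl11, the proteins that hold Mrpl12 at the stalk, had log2 values of 0.39 ± 0.20 and 0.21 ± 0.14, with adjusted p of 0.280 and 0.410. Mrps12, part of the decoding centre, was at 0.73 ± 0.20 (adjusted p 0.0675), and Mrpl45, which anchors the ribosome to the inner membrane, at 0.39 ± 0.17 (adjusted p 0.230). The 3 paralogs Mrps18a, Mrps18b and Mrps18c were at 0.37 ± 0.13, 0.54 ± 0.21 and 0.01 ± 0.18, and the last of these values turned negative, to -0.01, with DESeq2 size factors. Mrps30 was at 0.67 ± 0.27 and Mrps36 at 0.44 ± 0.16. None of these was called.

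The number of calls in this comparison differed between methods and sets of libraries, over all genes as well as over the members. DESeq2 called 17 members higher (6.64% of all genes), limma-voom with group weights 59 (21% of all genes), and edgeR without the filter on low counts 33 (4.97% of all genes). With the 2 flat groups fitted alone 59 members were called higher, against 23% of all genes. Without 3D_induced replicate 1 or replicate 2 the count was 58 each time, against 16.2% of all genes. It was 5 and 6 without 3D_uninduced replicate 1 or 2 (3.75% and 3.81% of all genes), and none without any 1 of the 4 flat libraries (1.17% to 1.46% of all genes). The median change stayed between 0.40 and 0.46 when any 1 library was left out.

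**Figure D2:**
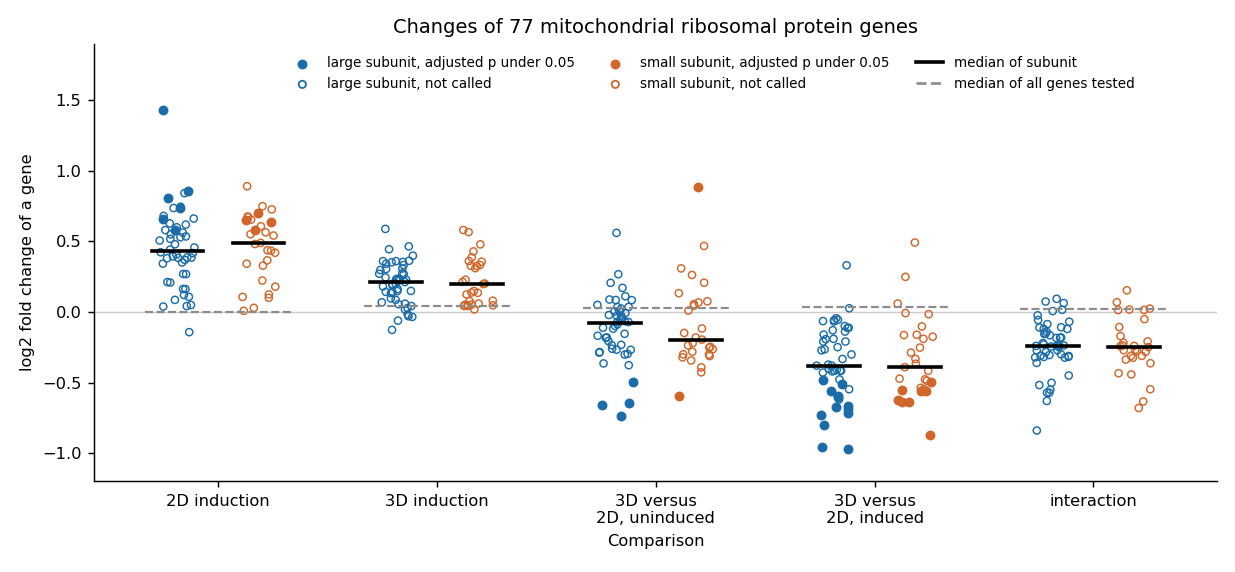
Log2 fold change of each of the 77 members (points, large and small subunit side by side) in the 4 comparisons and the interaction, with filled points for an adjusted p under 0.05; black lines are subunit medians and dashed lines the median of all genes tested. Large and small subunit medians lie near each other in every comparison, above the line of all genes for induction in 2D and in 3D and below it for 3D against 2D.

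Induction of spheroids gave no call among the members. In the same edgeR test 0 of 77 members were called higher or lower in 3D induced than in 3D uninduced spheroids, against 0.859% of all genes called higher, 0.505% called lower and 0.911% called with a change of at least 2-fold. DESeq2 and limma-voom also called 0. In edgeR 8 of 77 members had an unadjusted p under 0.05, beside 1896 of the 15255 genes tested. The change was positive in 72 members, and the median was 0.20 (0.22 for large and 0.20 for small subunit genes), beside 0.04 for all genes. Both induced libraries lay above both uninduced ones in 24 members (31.2%) and below them in none, against 18% and 14.6% of all genes.

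The smallest adjusted p belonged to Mrpl12, with 49.3 and 80.9 CPM in 3D induced against 44.0 and 42.6 CPM in 3D uninduced libraries (log2 change 0.59 ± 0.21, adjusted p 0.283). Mrps18b, one of 3 paralogs, had 27.8 and 41.0 CPM in 3D induced against 20.5 and 26.0 CPM in 3D uninduced libraries (0.57 ± 0.21, adjusted p 0.315). Mrpl17 had 52.5 and 60.6 CPM in 3D induced against 48.7 and 40.6 CPM in 3D uninduced libraries (0.34 ± 0.13, adjusted p 0.345). In each of the 3 genes replicate 1 of the induced spheroids lay only a little above the uninduced range and replicate 2 well above it.

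The 2 induced spheroid libraries differed from each other across the members. Replicate 2 was the higher one in 70 of 77, by a median of 0.40 on the log2 scale, whereas over all genes the median difference was -0.01. In the other groups the median difference of replicate 2 from replicate 1 over the members was 0.03 (3D uninduced), -0.03 (2D induced) and -0.05 (2D uninduced). The largest differences were in Mrps22 (1.04), Mrps30 (0.98) and Mrps6 (0.82). Replicate 1 lay above both uninduced spheroid libraries in 29 members, between them in 20 and below both in 28, so its members did not lean one way. Replicate 2 lay above both in 69, between them in 5 and below both in 3. Against the mean of the uninduced spheroids, the median change was 0.002 in replicate 1 and 0.40 in replicate 2, while the 2 induced flat libraries gave 0.49 and 0.47 against their own uninduced mean.

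Other measures moved with the same split. The adipocyte marker sum was 1556 CPM in replicate 1 and 2696 in replicate 2 of the induced spheroids, the fibroblast marker sum 20975 and 6910 CPM, and the share of counts in noncoding genes that overlap ribosomal RNA 0.106% and 1.13%. The 25 listed genes of mitochondrial import and chaperones summed to 1997 and 3016 CPM in the same order. The 18 cell cycle genes summed to 988 and 672 CPM in that order. Replicates 1 and 2 of the uninduced spheroids also differed in this sum, at 975 and 710 CPM. The part of these differences in the members' values was not tested. Without 3D_induced replicate 1, 48 members were called higher, against 16.6% of all genes. Without 3D_induced replicate 2 none was called higher and 1 was called lower, against 7.99% and 5.07% of all genes, and the median change of the members was -0.002.

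**Figure D3:**
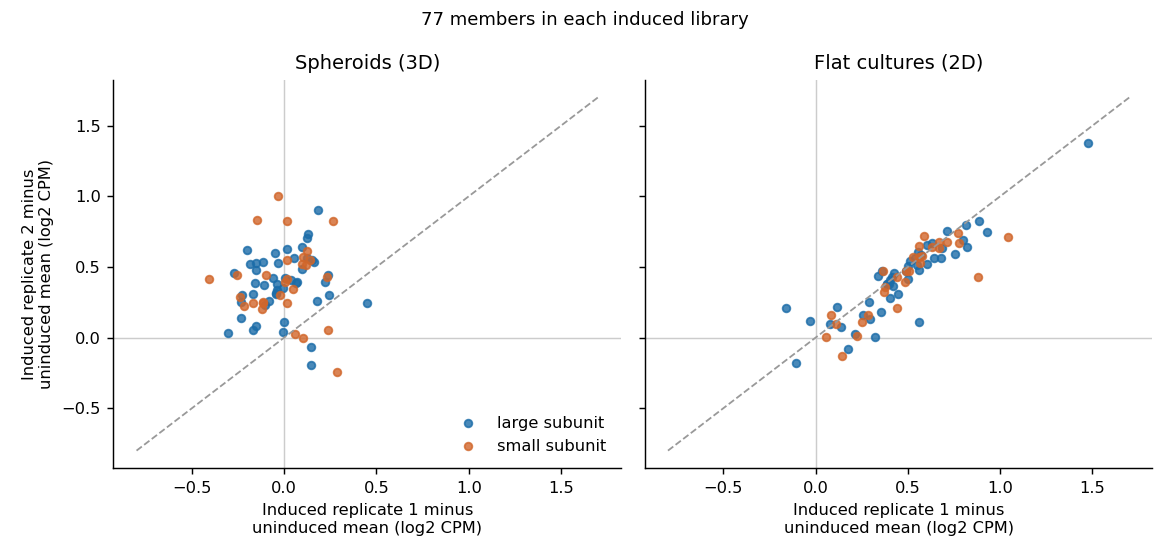
Change of each member in each induced library against the mean of the uninduced libraries of the same format (log2 CPM), replicate 1 on the horizontal and replicate 2 on the vertical axis, spheroids left and flat cultures right; the dashed line marks equal values. Flat cultures follow the line, with medians of 0.49 and 0.47, while spheroids sit above it, with medians of 0.002 in replicate 1 and 0.40 in replicate 2.

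The difference between the 2 inductions was tested as an interaction, and no member passed. The edgeR test called 0 of 77 members, against 0.0393% of all genes higher, 0.347% lower and 0.38% with a change of at least 2-fold, and DESeq2 and limma-voom also called 0. An unadjusted p under 0.05 was reached by 7 of 77 members in edgeR, beside 1199 of the 15255 genes tested. The value was negative, meaning a smaller increase in 3D, in 66 members, with a median of -0.24 (-0.24 for large and -0.25 for small subunit genes) beside 0.02 for all genes. The smallest adjusted p belonged to Mrpl12 (-0.84 ± 0.29, adjusted p 0.506), Mrpl51 (-0.57 ± 0.20, adjusted p 0.517) and Mrpl15 (-0.63 ± 0.23, adjusted p 0.526). Without 3D_induced replicate 2, 35 members were called lower (7.53% of all genes), and without 3D_induced replicate 1, 2 were (6.63% of all genes).

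Uninduced spheroids and uninduced flat cultures differed in few members. Of 77, 5 were called lower (6.49%) and 1 higher (1.30%) in 3D uninduced than in 2D uninduced cultures, against 10.2% and 10.9% of all genes. No call reached 2-fold, a change that 9.44% of all genes showed together with an adjusted p under 0.05. The median change was -0.12 (-0.08 for large and -0.20 for small subunit genes), beside 0.03 for all genes. Without TMM scaling it was 0.06, beside 0.20 for all genes, so the sign of the members' median depends on the scaling while its place below the median of all genes does not. Both spheroid libraries lay above both flat ones in 9 members (11.7%) and below them in 39 (50.6%), against 38.1% and 35.2% of all genes.

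The 5 members lower in uninduced spheroids, 4 of the large and 1 of the small subunit, all have counterparts in bacteria. By the lists used here so do 30 of 48 large and 16 of 29 small subunit members, Mrps10 among them. Mrpl30 had 31.6 and 30.1 CPM in 3D uninduced against 54.0 and 48.7 CPM in 2D uninduced libraries (log2 change -0.74 ± 0.14, adjusted p 0.0122). Mrpl13 had 44.6 and 47.9 CPM in 3D uninduced against 71.0 and 73.9 CPM in 2D uninduced libraries (-0.65 ± 0.15, adjusted p 0.0206). Mrps16, the small-subunit gene, had 25.5 and 23.0 CPM in 3D uninduced against 36.4 and 37.0 CPM in 2D uninduced libraries (-0.60 ± 0.15, adjusted p 0.0301). The groups were clearly separate in all of these. Mrpl23, at the exit tunnel, had 12.5 and 13.6 CPM in 3D uninduced against 19.3 and 22.01 CPM in 2D uninduced libraries (-0.66 ± 0.19, adjusted p 0.0480), and Mrpl28 had 47.6 and 47.7 CPM against 68.7 and 65.8 CPM in the same order of groups (-0.50 ± 0.14, adjusted p 0.0451).

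Mrps10, in the head of the small subunit, was the 1 member called higher, with 17.3 and 16.6 CPM in 3D uninduced against 9.36 and 9.04 CPM in 2D uninduced libraries (log2 change 0.88 ± 0.23, adjusted p 0.0320). Mrpl38, of the central protuberance, had 51.6 and 54.5 CPM in 3D uninduced against 37.2 and 34.7 CPM in 2D uninduced libraries and came close to the threshold (0.56, adjusted p 0.0525); it was picked out after its values were seen. Without TMM scaling Mrpl30 and Mrps10 were called, while Mrpl13, Mrps16, Mrpl23 and Mrpl28 had adjusted p of 0.0517, 0.0849, 0.102 and 0.140. Limma-voom with group weights called 15 members lower and 4 higher, against 20.9% and 23.1% of all genes. Members called lower numbered 22 without 3D_induced replicate 1 and 21 without 3D_induced replicate 2 (22.2% of all genes each), and 18 with the uninduced groups fitted alone (22.8%). They numbered 2 without 2D_induced replicate 1 or 2 (6.17% and 6.16% of all genes), and none without any 1 of the 4 uninduced libraries (2.29% to 3.8%). With the uninduced groups fitted alone 4 members were called higher, against 22.4% of all genes.

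**Figure D4:**
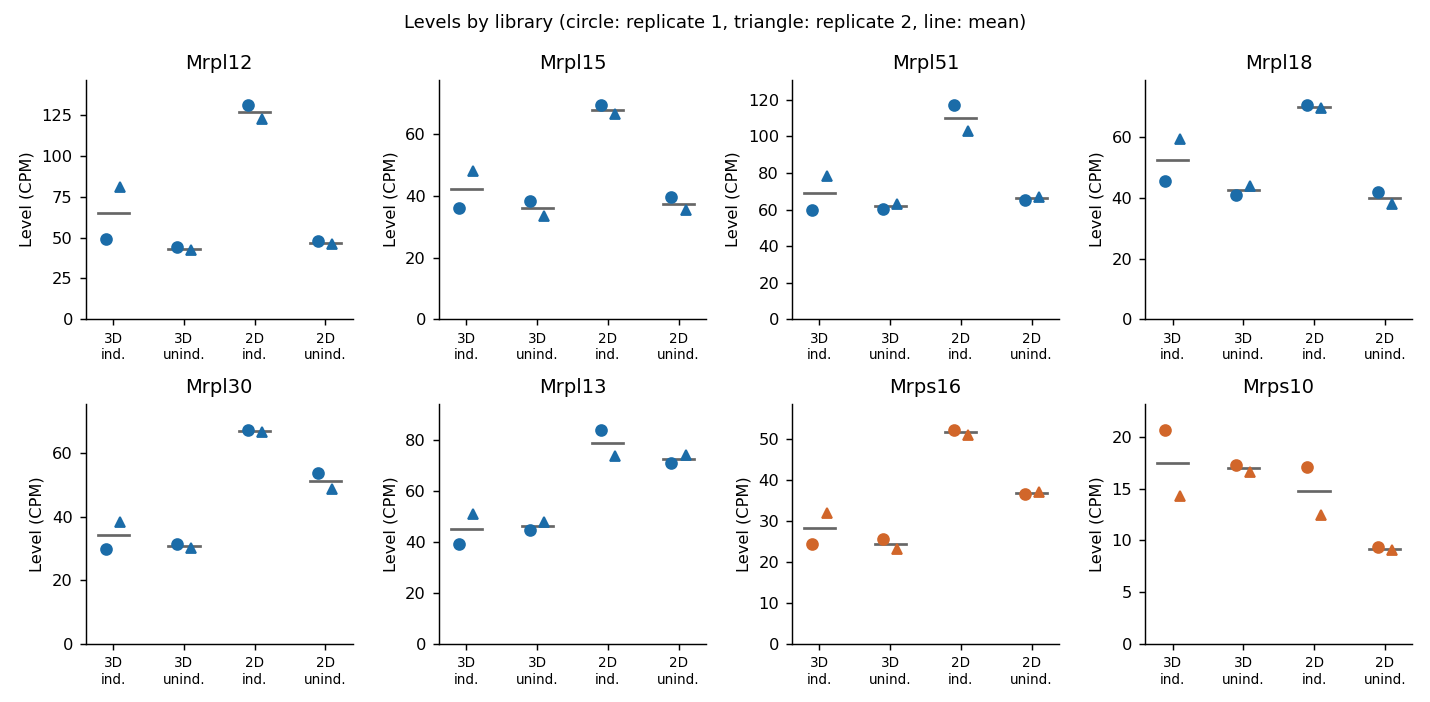
Level (CPM) of 8 members in each library by group; circles are replicate 1, triangles replicate 2 and lines the mean of both, blue for large and orange for small subunit genes. Mrpl12, Mrpl15, Mrpl51 and Mrpl18 are highest in 2D induced cultures, Mrpl30, Mrpl13 and Mrps16 are lower in both spheroid groups than in both flat groups, and Mrps10 is lowest in 2D uninduced cultures.

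In induced cultures, spheroids had lower levels than flat cultures for members of both subunits. Of 77, 21 (27.3%) were called lower in 3D induced than in 2D induced cultures, against 14% of all genes, 13 of them large and 8 small subunit genes. None was called higher, against 14.7% of all genes, and DESeq2 and limma-voom called none higher either; Mrps18b came nearest among the positive changes (0.49 ± 0.21, adjusted p 0.115). A change of at least 2-fold, met by 12.4% of all genes, was reached by no member. An unadjusted p under 0.05 in edgeR was found for 39 of 77 members, beside 6512 of the 15255 genes tested. The change was negative in 72 members, and the median was -0.38 (-0.38 for large and -0.39 for small subunit genes), beside 0.03 for all genes. Without TMM scaling it was -0.24, beside 0.17 for all genes. Both induced spheroid libraries lay below both induced flat libraries in 49 members (63.6%), against 31.2% of all genes. They lay above in 2 (2.60%), Mrps18b and Mrpl38, against 31.9%.

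Mrpl30 showed the largest decrease, with 29.8 and 38.4 CPM in 3D induced against 67.4 and 66.7 CPM in 2D induced libraries (log2 change -0.97 ± 0.14, adjusted p 0.00327). It was called in each of the 15 alternatives, with adjusted p from 7.78e-08 to 0.0474. Mrpl12 had 49.3 and 80.9 CPM in 3D induced against 131 and 122 CPM in 2D induced libraries (-0.96 ± 0.21, adjusted p 0.0132). Mrps16 had 24.3 and 31.95 CPM in 3D induced against 52.2 and 51.0 CPM in 2D induced libraries (-0.87 ± 0.15, adjusted p 0.00582). The replicates of the spheroids differ in each of these genes, yet both lie below the flat cultures.

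Mrpl13 had 39.3 and 51.0 CPM in 3D induced against 84.0 and 73.6 CPM in 2D induced libraries (-0.80 ± 0.15, adjusted p 0.00719). Mrpl46, a central protuberance protein without a bacterial counterpart, had 16.1 and 20.2 CPM in 3D induced against 31.98 and 28.6 CPM in 2D induced libraries (-0.73 ± 0.18, adjusted p 0.0222). Mrpl23 had 14.4 and 11.4 CPM in 3D induced against 18.4 and 23.9 CPM in 2D induced libraries (-0.72 ± 0.19, adjusted p 0.0295). Mrpl46 shares 12.2% of its exon bases with Mrps11, which runs the other way and was also called lower (-0.55 ± 0.16, adjusted p 0.0339). Further calls were Mrpl1, Mrpl9, Mrpl14, Mrpl15, Mrpl17, Mrpl47, Mrpl49, Mrpl51, Mrps9, Mrps26, Mrps27, Mrps33, Mrps35 and Mrps36, with changes between -0.69 and -0.48. Mrps36, the 2-oxoglutarate dehydrogenase subunit, is among them at -0.64 ± 0.16 (adjusted p 0.0249).

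Mrpl13, Mrpl23, Mrpl30 and Mrps16 were called lower in spheroids in both states of induction, which is 80% of the members called lower without and 19.0% of those called lower with induction; these 2 comparisons share no library, though they share the spread per gene. Mrpl12, Mrpl15, Mrpl17, Mrpl51, Mrps26 and Mrps27 were called both higher in 2D induction and lower in 3D than in 2D induced cultures, 2 comparisons that share the 2D induced libraries. With limma-voom 8 members were called lower in 3D than in 2D induced cultures (7.83% of all genes), without TMM scaling 11 (10.4%), and without the filter on low counts 35 (9.85%). The count of 21 also differed with the library left out, in both directions. It became 13 without 3D_uninduced replicate 1 (10.7% of all genes) and 10 without 2D_uninduced replicate 1 or 2 (8.96% and 8.98%). It was 2 without 2D_induced replicate 2 (4.38%), 1 without 2D_induced replicate 1 (4.59%), and 1 with the induced groups fitted alone (4.02%). Against the 2D induced libraries, 3D_induced replicate 1 lay below both in 71 members, between them in 3 and above both in 3. 3D_induced replicate 2 lay below both in 51, between them in 9 and above both in 17. The lower levels thus showed in more members in replicate 1 than in replicate 2.

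By region of the ribosome, the counts below stand beside 5.91% of all genes called higher in 2D induction and 14% called lower in 3D than in 2D induced cultures. The regions hold few genes, and no difference between them was tested. The L7/L12 stalk (Mrpl10, Mrpl11 and Mrpl12) and the separate L1 stalk (Mrpl1) were listed together. Of these 4 genes, 1 was called higher in 2D induction and 2 were called lower in 3D than in 2D induced cultures, with medians of 0.51 and -0.49. In the central protuberance, which bridges the subunits, 1 of 7 was called higher in 2D induction and 1 lower in induced 3D (medians 0.56 and -0.38). At the rim of the exit tunnel it was 1 and 3 of 6 (medians 0.38 and -0.34), and in the head of the small subunit 0 and 3 of 8 (medians 0.49 and -0.48). Mrpl genes listed with a bacterial counterpart had 4 calls higher in 2D induction and 10 lower in induced 3D out of 30, and the other Mrpl genes 2 and 3 out of 18. For Mrps genes the same counts were 2 and 3 of 16 listed with a bacterial counterpart, and 2 and 5 of the other 13. The 13 are not all small-subunit proteins without a counterpart. They include Mrps36, which was among the calls in induced 3D, and Mrps30 and Mrps18a, which sit in the large subunit. Mrps18a and Mrps18b, also among them, are paralogs of the listed Mrps18c.

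Of 5 mitochondrial ribosomal proteins that carry other symbols, 1 was called higher in 2D induction (5.91% of all genes). In 3D against 2D, 1 was called higher without induction (10.9% of all genes) and 1 lower with induction (14%). The signs were 5 positive in 2D induction (median 0.35) and in 3D induction (0.24), 5 negative in 3D against 2D induced cultures (-0.19; Dap3 was positive, at 0.09, without TMM scaling), and 2 positive and 3 negative in 3D against 2D uninduced cultures (-0.17). Ptcd3, a pentatricopeptide repeat protein of the small subunit, rose in 2D induction (0.95 ± 0.14, adjusted p 0.00709) and was also higher in 3D than in 2D uninduced cultures (0.49 ± 0.14, adjusted p 0.0470). Chchd1 was lower in 3D than in 2D induced cultures (-0.75 ± 0.20, adjusted p 0.0291). Dap3, a GTP-binding small-subunit protein, was at 0.45 ± 0.12 in 2D induction (adjusted p 0.0585). Aurkaip1 and Gadd45gip1 were called in none of the comparisons.

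Other genes that the mitochondrial ribosome works with were examined beside the members. The counts below stand beside 5.91% of all genes called higher and 2.97% called lower in 2D induction. In 3D against 2D induced cultures 14.7% of all genes were called higher and 14% lower. Of 24 tested genes of protein import and folding in mitochondria, 6 were called higher in 2D induction and 3 lower in 3D than in 2D induced cultures, with medians of 0.55 and -0.37; the chaperone Hspd1 rose by 1.10 ± 0.18 and the import pore Tomm40 by 1.03 ± 0.15 in 2D induction. Of 13 genes for translation factors and proteins that work with them, 2 rose in 2D induction. These were the elongation factor genes Tufm (0.99 ± 0.14) and Tsfm (0.77 ± 0.16). In induced 3D 3 were lower, among them Gfm2 (-0.67 ± 0.10) and Oxa1l (-0.68 ± 0.11). The 25 assembly factors had 0 calls in 2D induction and 2 higher and 3 lower in induced 3D, with medians of 0.20 and 0.10. Among them the methyltransferase-like genes Mettl17 (1.28 ± 0.22) and Mettl15 (-1.45 ± 0.29) had opposite signs in 3D against 2D induced cultures.

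Of all genes tested, 5.91% were called higher in 2D induction and 0.859% in 3D induction. In 3D against 2D, 10.9% were called higher and 10.2% lower without induction, and 14.7% and 14% with it. Of 20 mitochondrial tRNA synthetase genes and their kin, 2 were called higher in 2D induction, and in induced 3D against 2D 4 were higher and 2 lower. Cars2 (0.94 ± 0.21) and Fars2 (-0.996 ± 0.179) differed in opposite ways between induced 3D and 2D. Of 16 genes listed for mitochondrial transcription and RNA processing, 2 were called higher in 2D induction, among them Elac2 (0.78 ± 0.14). The list also holds the DNA polymerase gene Polg. Polg (0.55 ± 0.11) and the RNA polymerase gene Polrmt (0.65 ± 0.13) were higher in 3D than in 2D uninduced cultures. Of 9 regulators, 3 were called higher in 2D induction and 1 in 3D induction, 2 were higher and 1 lower in 3D than in 2D uninduced cultures, and 2 were higher and 2 lower in 3D than in 2D induced cultures (median 0.01). Ppargc1b, a coactivator of nuclear genes for mitochondria, rose by 2.47 ± 0.28 in 2D induction (adjusted p 0.00194), and its partner receptor Esrra by 1.06 ± 0.15 (adjusted p 0.00606). Both were lower in 3D than in 2D induced cultures, at -1.02 ± 0.25 and -0.67 ± 0.15 (adjusted p 0.0221 and 0.0160). In the other direction, Pprc1, a relative of these coactivators, was higher in 3D than in 2D induced cultures (1.03 ± 0.11, adjusted p 0.00105), and Myc, a transcription factor of growth genes, was higher in 3D than in 2D uninduced cultures (1.57 ± 0.29, adjusted p 0.00893). Nrf1, Gabpa and Yy1, whose motifs were searched in the promoters, were at 0.02, -0.15 and 0.02 in 2D induction and were not called there.

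The RNAs that the mitochondrial ribosome translates or contains, and the genes of the cytosolic ribosome, differed between formats. Over all genes, 3D against 2D gave 10.9% called higher and 10.2% lower without induction, and 14.7% and 14% with it. Of 13 tested mitochondrially encoded genes, 9 were called higher in 3D than in 2D uninduced and 10 in 3D than in 2D induced cultures, with medians of 2.06 and 2.44 and mt-Nd4 at 3.07 ± 0.14 with induction. None was called in either induction, with medians of 0.05 in 2D and 0.39 in 3D. They made up 2.03% and 2.25% (3D induced), 1.84% and 1.57% (3D uninduced), 0.301% and 0.340% (2D induced) and 0.319% and 0.310% (2D uninduced) of all counts. Of 80 tested cytosolic ribosomal protein genes, 66 were called lower and 1 higher in 3D than in 2D uninduced cultures, and 69 lower and 1 higher in 3D than in 2D induced cultures, with medians of -0.91 and -0.95. None of them was called in either induction, with medians of 0.17 in 2D and 0.10 in 3D, and Rpl30 (-1.27 ± 0.11 without induction) and Rpl3 (-1.22 ± 0.11 with induction) were among the strongest in 3D against 2D. Of 18 cell cycle genes, 1 was called higher in 2D induction (5.91% of all genes) and 1 lower in induced 3D (14%), with medians of 0.26 and -0.32.

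**Figure D5:**
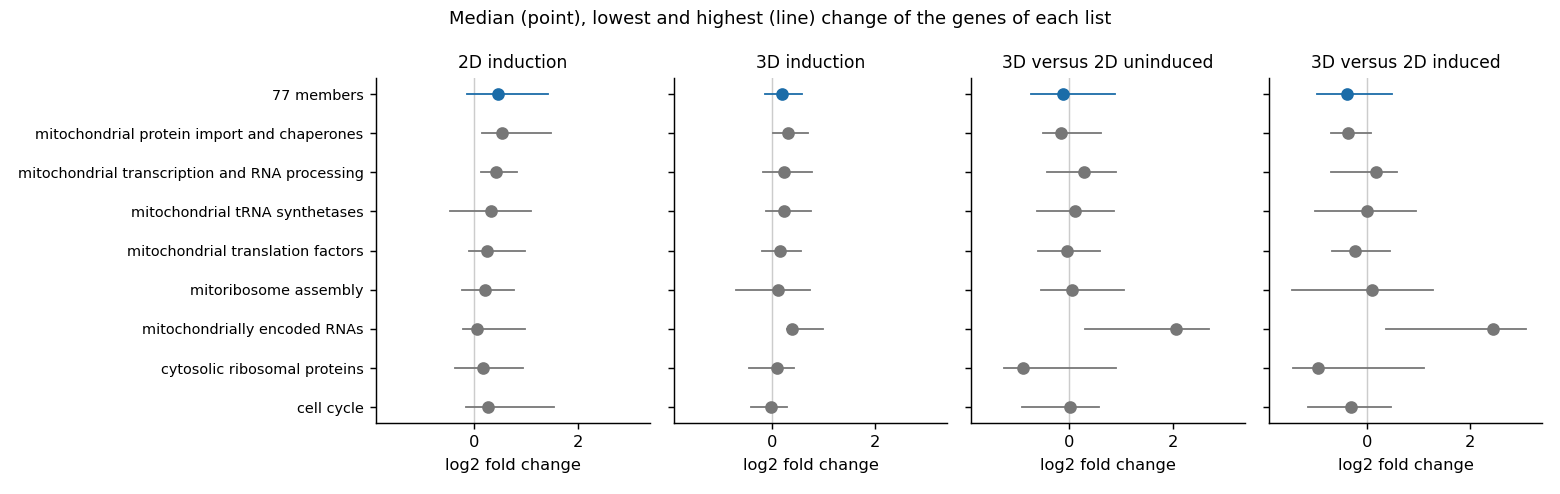
Log2 fold changes of the 77 members and of related gene lists in the 4 comparisons; points are medians and lines run from the lowest to the highest gene of a list. The members and the import and chaperone genes have similar medians in all 4 panels, mitochondrially encoded RNAs lie far to the right and cytosolic ribosomal protein genes to the left in both comparisons of 3D with 2D.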

How the data were processed

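RNA of 8 libraries was sequenced, and the deposited table holds raw read counts per Ensembl gene, as its whole numbers show. The submitters' processing notes list HISAT2 2.1.0 and featureCounts 1.6.3, besides FastQC 0.11.7 and Trimmomatic 0.38, and name mm10 as the build. Settings of these tools, strand and annotation included, are not stated in the sources at hand. Columns were joined to samples by the names in the sample descriptions, and replicate numbers are those of the titles. Symbols, positions and exon lengths came from GENCODE vM21, and 259 genes without a match there held 0.0285% of the counts.

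Further values were computed here in edgeR 4.0.16 under R 4.3.3, with DESeq2 1.42.0 and limma 3.58.1 for alternatives. Genes were kept by filterByExpr (minimum count 10), libraries were scaled by TMM, and the robust quasi-likelihood model of edgeR (1 mean per group, 4 residual degrees of freedom) was fitted to all 8 libraries. The 2-sided tests were adjusted by Benjamini-Hochberg over the 15255 genes tested, and members were called at an adjusted p under 0.05. Standard errors are the log2 change divided by the square root of F. A level of 1 CPM corresponds to 11.8 to 21.2 counts before scaling, so counting alone gives it an error of 21.7 to 29.1%. The code was tested on simulated counts.

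Alternatives were DESeq2, RLE scaling, no filter beyond 1 count, a replicate block, limma-voom with group weights, a fit of the compared groups alone, subunits by structure, no division by length, and each library left out in turn. Library totals without scaling, and leaving out libraries for the subunit ratio, were added after seeing the data. The members, the lists and the tests were chosen with earlier results of these data known, so lists are described by counts and medians only. The text names, in each comparison, up to 6 called members with the largest increase and 6 with the largest decrease, the 3 with the smallest adjusted p where fewer than 3 were called, members with set roles, the 5 highest and 5 lowest per kb, and up to 4 genes per list; other names, such as Mrpl38, Mrpl48, Mrps22 and the remaining calls, were chosen after their values were seen.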

Additional observations from a re-analysis of the deposited data

Results flagged for a closer look

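Mrpl37, a large-subunit protein without a bacterial counterpart, had values of opposite sign between formats with and without induction, though neither comparison was called. Its level was 40.9 and 42.5 CPM in 3D induced against 42.7 and 43.3 CPM in 2D induced libraries, so both spheroid libraries were lower (log2 change -0.04 ± 0.12, adjusted p 0.818). Without induction it was 37.3 and 31.9 CPM in 3D against 27.6 and 29.9 CPM in 2D libraries, so both spheroid libraries were higher (0.27 ± 0.13, adjusted p 0.167). The interaction was -0.31 ± 0.18 on the log2 scale, with an adjusted p of 0.759 in edgeR, and did not pass the test.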

How the results depend on the processing

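Members higher in 2D induction numbered 17 with DESeq2, 33 with no filter beyond 1 count, 59 with limma-voom with group weights, 59 with only the compared groups fitted, and 0 to 58 with 1 library left out; the median change was 0.44 with DESeq2 size factors and with RLE scaling, 0.45 with the compared groups alone, and 0.40 to 0.46 with 1 library left out. In 3D induction 1 member was called higher with no filter (1.79% of all genes), and 0 to 48 were higher and 0 to 1 lower with 1 library left out. The median there ranged from -0.0018 to 0.39, negative without 3D_induced replicate 2. For 3D against 2D uninduced, members called higher numbered 2 with DESeq2, 2 with no filter, 3 with unscaled library totals, 4 with voom, 4 with the compared groups alone and 0 to 5 with 1 library left out. Members called lower there numbered 1 with unscaled totals (6.84% of all genes), 15 with voom (20.9%) and 18 with the compared groups alone (22.8%). Members called lower numbered 0 to 22 with 1 library left out. The median was -0.13 with DESeq2 and with RLE scaling, 0.059 with unscaled totals, and -0.15 to -0.11 with 1 library left out. For 3D against 2D induced, members called lower numbered 11 with unscaled totals, 35 with no filter, 8 with voom, 1 with the compared groups alone and 1 to 62 with 1 library left out, members called higher 0 to 4, and the median ran from -0.62 to -0.19. In the interaction 1 member was called lower with no filter (0.818% of all genes), and medians ran from -0.44 to -0.04. The subunit ratio was 2.03 by structure, 1.64 without division by length and 1.82 to 1.84 with 1 library left out. Fitting the compared groups alone gives each comparison the spread of its own 4 libraries; the cause of the other changes was not tested.

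Titles number the replicates alike in all groups, and the labels do not say whether equal numbers mark paired samples. Deviations of same-numbered samples correlated at -0.006 to 0.206, above 0.1 in only 3D induced with 3D uninduced. Low correlations cannot exclude a pairing. In 2D uninduced the column names carry other numbers than the titles, and a pairing by those numbers was not checked. With the replicate block 11 members were called higher in 2D induction (5.05% of all genes). In 3D against 2D uninduced, 3 were called lower and 1 higher (9.18% and 9.88% of all genes). In 3D against 2D induced, 16 were called lower (13.1% of all genes). In 3D induction 0 were called (0.583% of all genes higher, 0.321% lower), and 0 in the interaction (0.0131% and 0.243%). Among named genes, the 2D induction change of Mrps18c turned to -0.0133 with DESeq2 and -0.0135 with RLE scaling and ran from -0.17 to 0.10 with 1 library left out. In 3D against 2D induced cultures leaving out 1 library gave -0.50 to 0.15 for Mrpl10, -0.51 to 0.041 for Mrpl45, -0.75 to 0.24 for Mrps30 and -0.19 to 0.088 for Dap3, positive in each without 3D_induced replicate 1, and Dap3 was at 0.093 with unscaled totals. Members held at least 67 counts per library, and how depth and the number of libraries each limit the calls was not compared.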
